A study of Mus musculus with 15 samples.

Results

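The aorta-gonad-mesonephros (AGM) region of C57BL/6 mouse embryos was profiled by RNA sequencing, and 10 genes of secreted plasma proteins known from liver and endoderm are described here: Afp, Alb, Ttr, Apoa1, Apob, Fga, Fgb, Fgg, Itih2 and Colec10. The members were chosen by name, not by a threshold on their values, and are 10 of the 28876 genes listed. They and the gene lists used below were chosen with earlier results of these data known. Counts of them called are therefore a description, and the shares of all genes beside those counts give scale only. Tissue around the dorsal aorta was cut into a dorsal part (AoD) and a ventral part (AoV) at embryonic day E9.5 (E9 AoD and E9 AoV) and E10.5 (E10 AoD and E10 AoV), and at the later stage the urogenital ridges, which flank the aorta, formed a further group (E10 UGR). Each of the 5 groups has 3 libraries, numbered 1 to 3. Every library was made from untreated tissue of 1 strain, pooled from many embryos and neither sorted nor amplified before library preparation, so each value averages over all cells in the cut piece and over all embryos in the pool. In such bulk samples, fewer cells of a type and less RNA per cell cannot be told apart. Levels are given in RPM (the share of reads assigned to a gene, scaled as reads-per-million), and n is 3 libraries wherever a mean ± SD stands.

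Each library held an estimated 33.8 to 48.6 megareads assigned to genes, inferred from the steps between low RPM values. Read numbers given below are estimates from the same steps. A gene without a read could therefore have had up to 3, which are worth 0.0617 RPM in the deepest library and 0.0889 RPM in the shallowest, a limit for counting error alone. The endothelial genes Cdh5 and Pecam1 were read in every library, at no less than 87.6 and 36.9 RPM, and the kidney and gonad gene Wt1 was highest in E10 UGR, at 370.3 ± 17.7 RPM. Wt1 was also at 226.3 ± 10.8 RPM in E10 AoV. Pax2 and Lhx1, also known from the urogenital ridge, were highest in E10 UGR as well, at 31.4 ± 3.80 and 43.7 ± 4.56 RPM. The endothelial genes were read in all groups and so do not check the dorsal and ventral labels.

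Plasma proteins of this kind are made by hepatoblasts, which arise from the ventral foregut endoderm and grow into the neighbouring mesenchyme of the septum transversum to form the liver bud. Before the liver takes over, the visceral endoderm of the yolk sac makes many of the same carriers, apolipoproteins and protease inhibitors, and parts of the embryonic gut endoderm make some of them. Their genes are transcribed under a shared set of liver-enriched transcription factors, among them HNF1, HNF4, FOXA and C/EBP proteins, which bind close to the start sites.

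Because the members moved together in the values given further on, the sequence before their start sites was searched for short letter motifs of these factors. RefSeq promoter windows (GRCm38.p6) were at hand for 8 of the 10 members, Ttr and Colec10 not being analysed here, and the 250 bases before the start were searched on both strands. The HNF1 half-site GTTAAT was found in 4 of the 8, Afp, Alb, Fga and Fgb, against 6.43% of 32851 promoter windows of all genes. The FOXA core TGTTTNC was found in 6 of the 8, against 17.8% of all windows. The C/EBP palindrome TTGCNNAA was likewise found in 6 of the 8, against 9.56% of all windows. The HNF4 site CAAAGTCCA was in none of the 8 and in 0.384% of all windows. None of the 4 motifs holds another of them, and a match is a description of the letters and not evidence of binding. The last 150 bases before the start are printed for the 4 members with the HNF1 half-site, 5′ to 3′ on the strand of the gene, with the half-site (or its reverse complement ATTAAC) in capitals. They lie at chr5:90490564-90490713 (Afp, + strand), chr5:90460720-90460869 (Alb, + strand), chr3:83026003-83026152 (Fga, + strand) and chr3:83049864-83050013 (Fgb, − strand).
Afp: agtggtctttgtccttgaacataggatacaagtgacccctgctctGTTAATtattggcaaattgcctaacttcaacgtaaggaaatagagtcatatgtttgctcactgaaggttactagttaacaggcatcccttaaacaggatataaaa
Alb: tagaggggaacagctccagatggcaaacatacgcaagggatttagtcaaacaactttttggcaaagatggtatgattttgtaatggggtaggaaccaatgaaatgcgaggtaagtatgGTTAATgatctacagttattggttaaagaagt
Fga: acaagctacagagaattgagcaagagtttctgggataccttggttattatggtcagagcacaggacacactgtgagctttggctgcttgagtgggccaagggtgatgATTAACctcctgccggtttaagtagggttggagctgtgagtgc
Fgb: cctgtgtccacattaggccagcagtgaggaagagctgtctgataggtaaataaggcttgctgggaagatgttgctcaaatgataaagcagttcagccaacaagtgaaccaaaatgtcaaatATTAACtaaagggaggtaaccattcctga
The first base of the half-site lay 105 bases before the start of Afp, 32 before that of Alb, 43 before that of Fga and 29 before that of Fgb. Each of these 4 windows also held a FOXA core and a C/EBP palindrome. Apoa1, Apob, Fgg and Itih2 had no half-site in the window, which says only that those letters are not there.

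In the libraries, the members formed a single pattern. They were abundant in E9 AoV and low in E9 AoD. In the E10 libraries none exceeded 1.56 RPM, and several were near the limit of detection. The sum of the 10 genes was 742, 962.5 and 602.9 RPM in E9 AoV. It was 16.9, 34.5 and 3.69 RPM in E9 AoD and never above 4.68 RPM in the 9 libraries of E10.5.

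**Figure D1:**
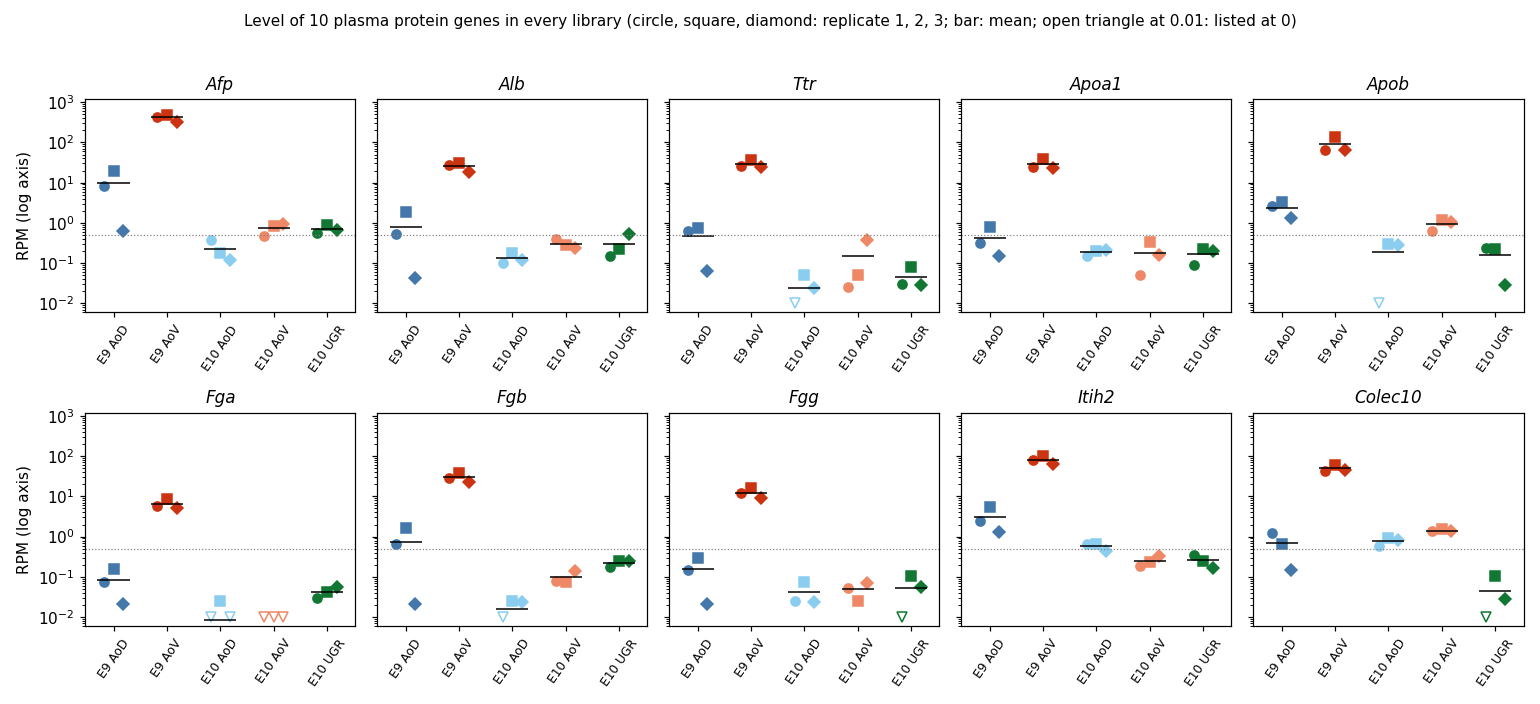
RPM of the 10 genes (log axis) in each of the 15 libraries, by group; circles, squares and diamonds are replicates 1, 2 and 3, the bar is the mean, and an open triangle at 0.01 marks a library where the gene is listed at 0. The dotted line is the filter of 0.5 RPM, and in each panel the 3 E9 AoV points lie above all others.

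The albumin family gave the highest and one of the lower levels. Afp, alpha-fetoprotein, the main serum protein of the fetus, stood at 427, 491 and 328 RPM in E9 AoV and at 8.26, 19.7 and 0.641 RPM in E9 AoD. Its lowest E9 AoV library was above its highest E9 AoD library, and the E9 AoD libraries ranged widely among themselves. Alb, serum albumin, the main plasma protein after birth, stood at 27.6, 31.6 and 18.5 RPM in E9 AoV and at 0.516, 1.85 and 0.0428 RPM in E9 AoD. The last of these rests on 2 reads. On the genome (NCBIM37) Alb lies at chr5:90889915-90905629 and Afp at chr5:90919740-90937933, both on the + strand and 14111 bases apart, and both are protein-coding genes with 15 exons in the longest transcript. Within a library, Afp had 16.3 ± 1.29 times the RPM of Alb in E9 AoV and 13.9 ± 2.84 times in E9 AoD. The 2 transcripts are of nearly the same length, 2086 and 2043 bases.

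Ttr, transthyretin, a carrier of thyroid hormone and of the retinol-binding protein, is a gene of 4 exons on chromosome 18. It stood at 25.9, 35.7 and 24.6 RPM in E9 AoV and at 0.615, 0.752 and 0.0641 RPM in E9 AoD. The groups did not overlap.

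The apolipoproteins were both abundant in E9 AoV. Apoa1, the main protein of high-density lipoprotein (chr9:46036663-46038549, 4 exons), stood at 25.0, 37.8 and 22.5 RPM in E9 AoV and at 0.32, 0.806 and 0.15 RPM in E9 AoD. Apob, the structural protein of low-density and very-low-density lipoprotein (chr12:7984454-8023641, 29 exons), stood at 66.1, 140 and 64.3 RPM in E9 AoV and at 2.63, 3.25 and 1.3 RPM in E9 AoD. Neither gene had overlapping groups, and Apob varied most of all members between the E9 AoV libraries, since its replicate 2 lay far above the other two.

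The fibrinogen genes encode the 3 chains of the clotting protein, and a complete molecule needs all of them. They lie side by side on chromosome 3, Fgg at chr3:82811781-82818975, Fga at chr3:82830075-82838036 and Fgb, on the opposite strand, at chr3:82846169-82853725. Fga, the alpha chain, stood at 5.72, 8.56 and 5.16 RPM in E9 AoV and at 0.0737, 0.161 and 0.0214 RPM in E9 AoD. Fgb, the beta chain, stood at 29.3, 37.5 and 22.3 RPM in E9 AoV and at 0.639, 1.61 and 0.0214 RPM in E9 AoD. Fgg, the gamma chain, stood at 11.8, 15.7 and 8.87 RPM in E9 AoV and at 0.147, 0.296 and 0.0214 RPM in E9 AoD. All 3 chains were thus present together in every E9 AoV library, and each was down to 1 read in replicate 3 of E9 AoD. Within a library of E9 AoV, Fgb had 2.46 ± 0.0654 times the RPM of Fgg and 4.61 ± 0.446 times that of Fga. Per length of the longest transcript in E9 AoV, Fgb was at 2.60 times the level of Fgg and 7.35 times that of Fga.

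Itih2, a heavy chain of the inter-alpha-trypsin inhibitors that bind hyaluronan in plasma and matrix (chr2:10016218-10053023, − strand, 21 exons), stood at 80.7, 103 and 62.7 RPM in E9 AoV. In E9 AoD it stood at 2.51, 5.37 and 1.28 RPM, the highest level there relative to E9 AoV. Colec10, collectin liver 1, a soluble lectin of innate immunity (chr15:54242329-54297913, 6 exons), stood at 42.9, 61.6 and 46.0 RPM in E9 AoV and at 1.23, 0.672 and 0.15 RPM in E9 AoD. Colec10 was the only member whose highest E9 AoD library was replicate 1 and not replicate 2.

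Compared per kilobase of the longest annotated transcript, which allows levels of different genes to be set side by side, the order in E9 AoV was led by Afp. Afp stood at 199.1 ± 39.4 RPM per kilobase, 7.25 times the level of the next gene, Apoa1. Apoa1 (27.5 ± 7.93), Itih2 (26.3 ± 6.47), Ttr (23.6 ± 4.98) and Fgb (18.1 ± 4.63 RPM per kilobase) followed, and of the neighbours among these 4 in the order, Ttr and Fgb alone differed by more than the larger SD of the pair. Alb (12.7 ± 3.29) and Colec10 (10.9 ± 2.18 RPM per kilobase) came next and were not separated from each other beyond their spread. Fgg (6.95 ± 1.97), Apob (6.47 ± 3.10) and Fga (2.46 ± 0.691 RPM per kilobase) closed the order, and Apob, at 13934 bases the longest transcript, moved from the second rank in RPM to the last but one.

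All 10 members were called higher in E9 AoV than in E9 AoD, where 8.32% of the 18553 genes tested were called higher. A gene was called where its Benjamini-Hochberg adjusted p from limma was below 0.05 and its difference on the log2(RPM + 0.1) scale was at least 1. The difference was between 4.90 for Itih2 (SE 0.37, adjusted p = 7.73e-08) and 6.37 for Afp (SE 0.80, adjusted p = 1.17e-05). The median of the 10 differences was 5.74, against 0.018 over all genes tested. The 10 members also had ranges that did not overlap, with E9 AoV above, as did 28.7% of the genes tested. In means, E9 AoV was 43.6-fold above E9 AoD for Afp, 32.3-fold for Alb, 60.2-fold for Ttr, 66.9-fold for Apoa1 and 37.7-fold for Apob. It was 75.9-fold above for Fga, 39.2-fold for Fgb, 78.3-fold for Fgg, 26.9-fold for Itih2 and 73.4-fold for Colec10. The level in E9 AoD was thus between 1.28% (Fgg) and 3.72% (Itih2) of that in E9 AoV. Fga and Fgg reached the filter of 0.5 RPM in E9 AoV alone, and Ttr, Apoa1 and Fgb in E9 libraries alone. The filter is therefore not independent of the comparisons with E9 AoV or of the interaction for Fga and Fgg, nor of the changes with stage for all 5 of these genes, and their calls there are a description. With no filter on low values, the same number of members, 10, was called in both comparisons with E9 AoV and in the interaction.

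The size of the difference depended on which E9 AoD library was included, while no call did. Replicate 3 of E9 AoD was the lowest library of its group for all 10 members and replicate 2 the highest for 9. Without replicate 3, the difference of Afp was 4.99 and that of Alb 4.53. Those of Ttr, Fgb and Colec10 without it were 5.19, 4.70 and 5.61. Without replicate 2, the difference was 7.36 for Afp, 6.42 for Alb and 6.61 for Fgb. Over all alternatives of the processing, the limma adjusted p of this comparison rose to at most 0.00193 for Afp, 0.00119 for Alb and 0.00109 for Fgb. In E9 AoV, replicate 2 was the highest library for all 10 members and replicate 3 the lowest for 9.

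Markers of other cells were read in the same E9 AoD libraries. Hnf4a, a liver and gut transcription factor, was at 0.442, 1.02 and 0 RPM, and Afm, which lies 10025 bases beyond Afp, at 0.147, 0.242 and 0 RPM, both in the order of the members. The mesothelium and septum transversum markers summed to 89.3, 116.6 and 59.6 RPM in E9 AoD and the macrophage markers to 8.28, 9.46 and 5.15 RPM, again highest in replicate 2 and lowest in replicate 3. Gata4 (11.2, 14 and 3.44 RPM) and the mesothelial gene Upk3b (9.83, 13.8 and 4.6 RPM) had the same order, as did the sum of the yolk sac markers over a narrow range (76.9, 81.2 and 75.1 RPM). Dab2, the largest of the yolk sac markers there, had that order (50.9, 59 and 44.1 RPM). Lrp2, the next largest, was lowest in replicate 2 (23.1, 19.8 and 28.9 RPM). The order of the yolk sac sum is therefore not read as that of yolk sac cells. Other sums did not follow the members. The 16 gut endoderm markers summed to 282.6, 236.6 and 300.8 RPM in E9 AoD, lowest in replicate 2. Sox2, also known from neural tissue, was the largest of them there and had the same order (100, 73.3 and 149 RPM). The order of this sum is therefore not read as that of gut endoderm. Pdx1, a pancreas and duodenum factor, was at 0 in all 3 E9 AoD libraries. The 9 erythroid markers summed to 8894, 3933 and 5434 RPM in E9 AoD and to 14380, 3045 and 8642 RPM in E9 AoV. Replicate 2, the highest for the members in E9 AoV, was thus the lowest for erythroid markers. The part of these cells in the members' levels was not tested.

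**Figure D2:**
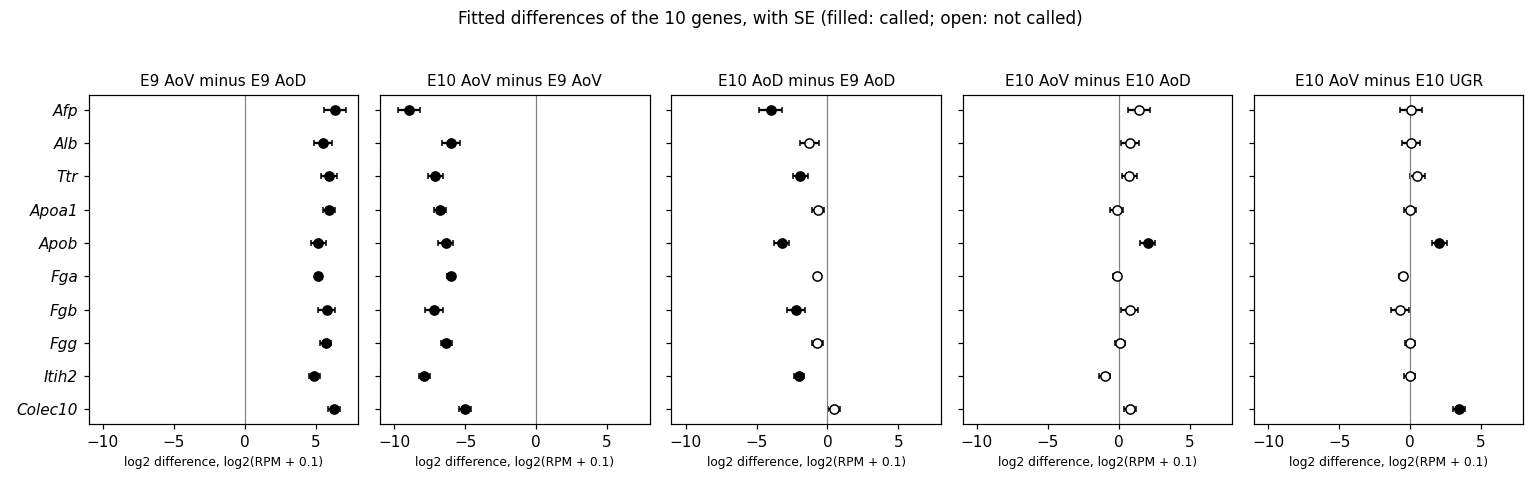
Fitted difference of each of the 10 genes in 5 comparisons, on the log2(RPM + 0.1) scale, with its standard error as the bar; filled points were called and open points were not. The 10 points are filled in both panels with E9 AoV, and few are filled in the panels between E10 groups.

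Nearly all of the signal of the ventral piece at E9.5 was absent from that at E10.5. The stages were cut from different embryos, so a change within the tissue and a different content of the cut piece cannot be told apart. All 10 members were called lower in E10 AoV than in E9 AoV, against 4.99% of the genes tested, and all 10 had ranges that did not overlap, as did 27.3% of the genes tested in that direction. The difference was between −5.03 for Colec10 (SE 0.44, adjusted p = 3.26e-07) and −8.95 for Afp (SE 0.80, adjusted p = 4.14e-07). The median was −6.56, against −0.002 over all genes tested. This comparison and that within E9.5 share the E9 AoV libraries, and the rank of Afp at one end is common to both.

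Afp was at 0.467, 0.844 and 0.955 RPM in E10 AoV, so that its mean in E9 AoV was 549.8-fold higher. Fgb was at 0.0778, 0.0767 and 0.14 RPM in E10 AoV, 302.5-fold below E9 AoV, and Itih2 at 0.182, 0.23 and 0.326 RPM, 333.9-fold below. Fga was listed at 0 in all 3 E10 AoV libraries. Counted against 3 reads per library, E9 AoV was at least 86.6-fold higher for Fga, and at least 162.0-fold higher for Fgg, which had 1 to 3 reads in each E10 AoV library. Ttr was 191.5-fold, Apoa1 155.7-fold, Apob 95.1-fold and Alb 86.1-fold lower in E10 AoV than in E9 AoV. Ttr was at 0.0259, 0.0512 and 0.373 RPM in E10 AoV, and without replicate 3 its difference was −7.69 in place of −7.10. Colec10 kept the most, at 1.35, 1.56 and 1.35 RPM, and was 35.3-fold lower.

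The dorsal signal was also lower at E10.5, from a lower start. Afp, Apob, Fgb, Itih2 and Ttr, 5 of the 10 members, were called lower in E10 AoD than in E9 AoD, against 4% of the genes tested. Afp fell by 4.01 on the log2 scale (SE 0.80, adjusted p = 0.000556), and Apob fell by 3.23 (SE 0.53, adjusted p = 0.00011). Fgb fell by 2.21, Itih2 by 2.0 and Ttr by 1.92, with adjusted p of 0.00734, 0.000334 and 0.00744. With a pseudocount of 1 RPM, the differences of Fgb (−0.686) and Ttr (−0.495) fell short of the threshold of 1. The ranges of Fgb overlapped, since replicate 3 of E9 AoD had 1 read. Alb, Apoa1, Fga and Fgg were not called, with differences of −1.27, −0.66, −0.71 and −0.71, and Colec10 stood at 0.684 ± 0.540 RPM in E9 AoD and 0.782 ± 0.174 RPM in E10 AoD, a difference of 0.45 (adjusted p = 0.393). The median of the 10 differences was −1.60, against −0.002 over all genes tested.

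Single libraries decided several of these values. Without replicate 3 of E9 AoD, the library with the least of every member, 8 members were called lower, Alb, Apoa1 and Fgg being added at −2.25, −1.10 and −1.16. The differences of Afp, Fgb and Ttr were then −5.39, −3.28 and −2.67, and that of Colec10 turned to −0.22. Without replicate 2 of E9 AoD, those of Afp and Fgb were −3.02 and −1.37. Apob, listed at 0 in replicate 1 of E10 AoD, had a difference of −2.58 without that library.

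On the log2 scale the fall from E9.5 to E10.5 was larger in the ventral than in the dorsal tissue for every member. The interaction, which is the stage difference within AoV less the one within AoD, was called below 0 for all 10, against 6.89% of the genes tested. The same quantity is the difference between AoV and AoD at E10.5 less that at E9.5. Since the median difference at E10.5 was 0.76, the interaction largely restates the E9.5 difference and is no separate result. It was between −3.14 for Apob (SE 0.75, adjusted p = 0.00568) and −6.09 for Apoa1 (SE 0.60, adjusted p = 3.44e-06). The median was −5.24, against 0.015 over all genes tested. For Fga and Fgg the E9 AoD level was already close to that of 3 reads, so that their dorsal change could not be measured beyond it. In every E10 AoD library Ttr, Fga, Fgb and Fgg were at or under 3 reads, and a dorsal fall below that level could not be measured. Without replicate 3 of E9 AoD, the interaction of Afp was −3.57, of Alb −3.75, of Ttr −4.43, of Fgb −3.94 and of Colec10 −4.81. Without replicate 2 of that group it was −5.94 for Afp, −5.64 for Alb and −5.84 for Fgb. Without replicate 1 of E10 AoD it was −3.79 for Apob, and without replicate 3 of E10 AoV it was −5.77 for Ttr. With a pseudocount of 0.02 RPM, that of Apob was −2.32 and no longer called (adjusted p = 0.1997).

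At E10.5 the members were low, several of them at the edge of detection, and only a few differed between the tissues. Others were above it, as in E10 AoV, where Colec10 had 52 to 61 reads per library and Afp 18 to 41. Of the 10 members, 5 reached 0.5 RPM in any E10 library, namely Afp, Alb, Apob, Itih2 and Colec10. Ttr, Apoa1, Fga, Fgb and Fgg reached it in E9 libraries alone.

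Among the E10 tissues, Colec10 showed the largest called differences of the members. It was at 1.35, 1.56 and 1.35 RPM in E10 AoV, at 0.589, 0.928 and 0.829 RPM in E10 AoD and at 0, 0.103 and 0.0282 RPM in E10 UGR. The 3 groups did not overlap. Its level in E10 AoV was 32.5-fold that in E10 UGR, a difference of 3.46 (SE 0.44, adjusted p = 2.39e-05), and 2 of the 10 members were called higher in that comparison, against 3.84% of the genes tested. It was also called higher in E10 AoD than in E10 UGR, with a difference of 2.66 (SE 0.44, adjusted p = 0.000177), the 1 member so called, against 4.76% of the genes tested. With a pseudocount of 1 RPM that difference was 0.768, below the threshold of 1. Between E10 AoV and E10 AoD, Colec10 differed by 0.80 (SE 0.44, adjusted p = 0.177) and was not called.

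Apob was at 0.623, 1.15 and 1.07 RPM in E10 AoV, at 0, 0.301 and 0.284 RPM in E10 AoD and at 0.237, 0.226 and 0.0282 RPM in E10 UGR. The E10 AoV libraries were above all others of that stage. Between these 2 aorta groups Apob was the 1 member called, and it was higher in E10 AoV, against 5.81% of the genes tested, with a difference of 2.03 (SE 0.53, adjusted p = 0.00749). Without replicate 1 of E10 AoD, where Apob is listed at 0, the difference was 1.38. Against E10 UGR the difference was 2.08 (SE 0.53, adjusted p = 0.00823). With a pseudocount of 1 RPM neither of these differences of Apob reached a log2 size of 1.

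Itih2 ran the other way, at 0.64, 0.652 and 0.45 RPM in E10 AoD, above the 0.182, 0.23 and 0.326 RPM of E10 AoV and the 0.356, 0.247 and 0.169 RPM of E10 UGR. E10 AoV and E10 AoD did not overlap, but the difference between them was −0.98 (SE 0.37, adjusted p = 0.0538), short of both thresholds. With quantile normalization it was −1.12, with an adjusted p of 0.0257. Against E10 UGR, the E10 AoD level of Itih2 differed by 0.95 (SE 0.37, adjusted p = 0.0577).

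Afp was at 0.384, 0.176 and 0.118 RPM in E10 AoD, below all libraries of E10 AoV and below the 0.563, 0.864 and 0.676 RPM of E10 UGR. The difference between E10 AoV and E10 AoD was 1.43 (SE 0.80, adjusted p = 0.188) and was not called. Nor was that between E10 AoD and E10 UGR (−1.36, adjusted p = 0.202). The SE was estimated over all 15 libraries, and those of E9 AoD ranged widely for Afp. With the groups compared fitted alone in limma, both differences of Afp were called (adjusted p = 0.0119 and 0.0086). Alb, at 0.102, 0.176 and 0.118 RPM in E10 AoD and 0.389, 0.281 and 0.233 RPM in E10 AoV, had ranges that did not overlap and a difference of 0.78 (adjusted p = 0.383). Fgb was at no more than 1 read in each E10 AoD library and at 0.178, 0.247 and 0.253 RPM in E10 UGR, above both E10 aorta groups. Between E10 AoV and E10 UGR it differed by −0.73 (adjusted p = 0.433), and between E10 AoD and E10 UGR by −1.49 (adjusted p = 0.075). Of the 10 members, 5 had E10 AoV wholly above E10 AoD and 1 wholly below, against 27.9% and 21.6% of the genes tested.

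Ttr, Apoa1 and Fgg gave no separated groups at E10.5. Apoa1 was between 0.0519 and 0.333 RPM over the 9 libraries and Fgg between 0 and 0.103 RPM. Ttr was between 0 and 0.0822 RPM in 8 of the 9 and at 0.373 RPM in replicate 3 of E10 AoV. Fga was between 0 and 0.0563 RPM, at most 2 reads in any library, so that differences between the E10 groups were not detectable at this depth.

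**Figure D3:**
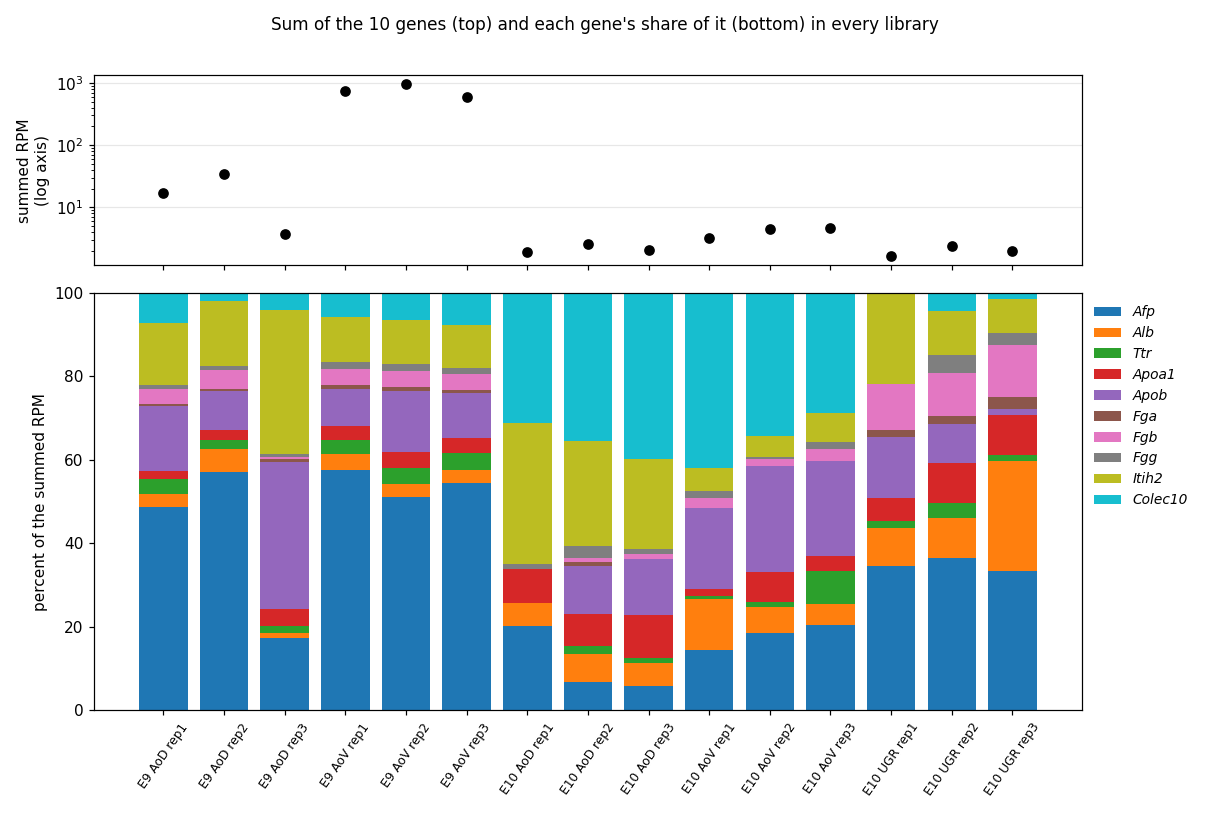
Upper panel, sum of the 10 genes in each of the 15 libraries in RPM (log axis); lower panel, the percent of that sum given by each gene. Afp fills most of each E9 AoV bar, 54.3% on average, and Colec10 has the largest mean share in E10 AoV and E10 AoD, although Itih2 exceeds it in replicate 1 of E10 AoD.

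The composition of the signal changed as well as its size. In E9 AoV, Afp gave 54.3 ± 3.27% of the summed RPM, Apob 11.4 ± 2.89%, Itih2 10.7 ± 0.241% and Colec10 6.60 ± 0.941%. Apob ranged most among these, from 8.91% in replicate 1 to 14.6% in replicate 2, while Itih2 kept between 10.4% and 10.9%. In E9 AoD, Afp gave between 17.4% and 57.2% of the sum, the lowest share in replicate 3, where Apob and Itih2 gave 35.2% and 34.7%. In E10 AoV and E10 AoD, Colec10 gave the largest mean share, 35.0 ± 6.58% and 35.5 ± 4.36%. In E10 UGR, Afp did, with 34.8 ± 1.61%, while Colec10 gave 1.92 ± 2.22%. The sums behind the E10 shares are small, between 1.63 and 4.68 RPM, and the shares were not tested.

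The other plasma protein genes on the lists moved with the members. Of 10 further apolipoprotein and lipoprotein assembly genes tested, 9 were called higher in E9 AoV than in E9 AoD, and 7 were called lower in E10 AoV than in E9 AoV. Apoa4, an intestinal and liver apolipoprotein, was at 7.33 ± 2.03 RPM in E9 AoV and at 0.0543 ± 0.0566 RPM in E9 AoD. Apoa2, the partner of Apoa1 in high-density lipoprotein, was at 14.3 ± 3.06 and 0.671 ± 0.447 RPM. The median log2 difference of the list was 2.51 between the E9 groups, smaller than that of the members.

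Of 10 plasma carriers and fetuins tested, 8 were called higher in E9 AoV than in E9 AoD and 8 lower in E10 AoV than in E9 AoV. Ambp, the precursor of alpha-1-microglobulin and bikunin, which joins the heavy chains such as Itih2, was at 30.7 ± 6.67 RPM in E9 AoV, against 0.796 ± 0.661 RPM in E9 AoD. Serpina6, the carrier of corticosteroids, was at 8.02 ± 2.33 and 0.177 ± 0.266 RPM. The 2 genes called lower in E9 AoV were Cp, ceruloplasmin, a copper carrier (5.14 ± 2.11 RPM in E9 AoD, 0.622 ± 0.283 RPM in E9 AoV), and Apod, a lipocalin (1.39 ± 0.580 and 0.093 ± 0.00196 RPM), both also known outside the liver. The list was therefore not uniform.

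Of 15 genes of coagulation and fibrinolysis tested beside the fibrinogen chains, 12 were called higher in E9 AoV than in E9 AoD and 11 lower in E10 AoV than in E9 AoV. Serpinf2, antiplasmin, was at 47.5 ± 10.46 RPM in E9 AoV, against 1.45 ± 1.40 RPM in E9 AoD. Plg, plasminogen, was at 8.23 ± 1.57 and 0.281 ± 0.215 RPM. Serpind1, heparin cofactor 2, stood at 9.06 ± 2.44 RPM in E9 AoV and fell at E10.5 to 0.0155 ± 0.0269 RPM in AoV. Of 11 inter-alpha-trypsin inhibitor and serpin genes tested, 8 were called higher in E9 AoV than in E9 AoD and 9 lower in E10 AoV than in E9 AoV. Serpina1b, an alpha-1-antitrypsin, was at 27.2 ± 5.84 RPM in E9 AoV, against 0.591 ± 0.552 RPM in E9 AoD. The Serpina1 copies are near identical and share reads, which were divided among them, so that the level of each copy is uncertain.

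Of 10 collectin and complement genes tested, 7 were called higher in E9 AoV than in E9 AoD. From E9 AoV to E10 AoV 5 fell and 2 rose, among the latter C1qa, a complement component of macrophages (0.248 ± 0.0344 to 3.51 ± 0.995 RPM). Colec11, which pairs with Colec10 in the circulating lectin, was at 3.93 ± 0.272 RPM in E9 AoV, against 0.197 ± 0.133 RPM in E9 AoD. In the E10 groups it was at 2.84 ± 0.32 RPM in AoV, 0.0826 ± 0.0153 RPM in AoD and 0.256 ± 0.183 RPM in UGR. C3, the central complement protein, was at 3.38 ± 0.788 RPM in E9 AoV, and its E10 AoV level was 1.43 ± 0.03 RPM. Colec11 was thus still read in E10 AoV above the members, none of which exceeded 1.56 RPM there. C3 was at the level of Colec10 in that group (1.42 ± 0.121 RPM) and was called lower than in E9 AoV.

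**Figure D4:**
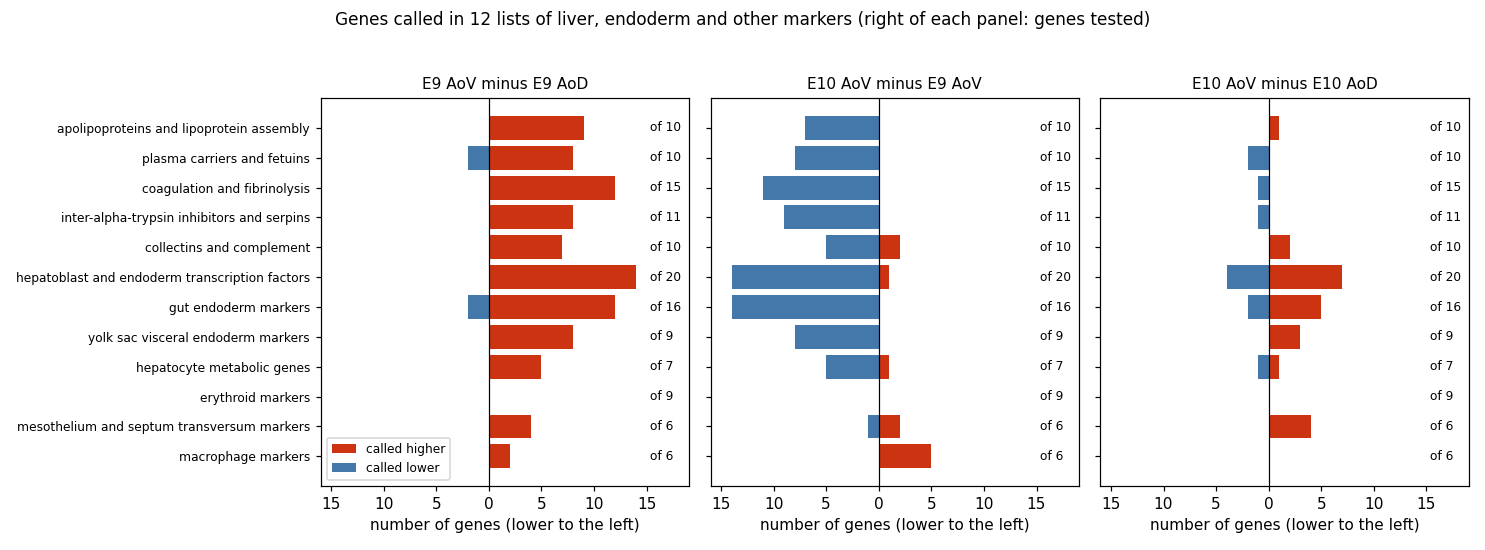
Number of genes called higher (right, red) and lower (left, blue) in 12 lists of liver, endoderm and other cell type genes, for 3 comparisons; the number at the right of each panel is that of genes tested. The plasma protein lists point to the right in the first panel and mostly to the left in the second, and the erythroid list has no called gene in any of the 3.

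The transcription factors known to act on these genes followed in part. Of 20 hepatoblast and endoderm transcription factors tested, 14 were called higher in E9 AoV than in E9 AoD and none lower, with a median log2 difference of 2.16, and 14 were called lower in E10 AoV than in E9 AoV. Hnf4a was at 18.3 ± 4.20 RPM in E9 AoV, 0.487 ± 0.512 RPM in E9 AoD and 0.464 ± 0.0485 RPM in E10 AoV. It was at 2.45 ± 0.278 RPM in E10 UGR, where the sum of the members was no higher than 2.37 RPM. Foxa1, a pioneer factor of endoderm, stood at 51.5 ± 9.97 RPM in E9 AoV and fell at E10.5 to 0.621 ± 0.150 RPM in AoV. Foxa2 was at 11.1 ± 0.451 RPM in E9 AoD and 10.8 ± 1.22 RPM in E9 AoV, and so did not separate the E9 tissues as the members did. Gata4 was the 1 factor called higher in E10 AoV than in E9 AoV (95.6 ± 6.44 to 233.3 ± 16.2 RPM). Nr1h5, a nuclear receptor for sterols, was at 16.8 ± 3.75 RPM in E9 AoV, its E10 AoV level was 21.9 ± 3.26 RPM, and it was at 0.404 ± 0.465 RPM in E9 AoD.

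Markers of the cells that could carry such genes were read beside them. Of 16 gut endoderm markers tested, 12 were called higher in E9 AoV than in E9 AoD and 2 lower, Sox2 (107.4 ± 38.4 RPM in E9 AoD, 11.8 ± 1.007 RPM in E9 AoV) and Cdx1 (6.21 ± 1.65 and 2.13 ± 0.490 RPM), which are also known from neural and posterior mesodermal tissue. The list summed to between 766.6 and 849.5 RPM in E9 AoV, and between 236.6 and 300.8 RPM in E9 AoD, a narrower gap than that of the members. Of these 16, 14 were called lower in E10 AoV than in E9 AoV, among them Cdx2, an intestinal factor (26.7 ± 0.666 to 0.828 ± 0.292 RPM). Of 9 yolk sac visceral endoderm markers tested, 8 were called higher in E9 AoV than in E9 AoD and 8 lower in E10 AoV than in E9 AoV. Cubn, the vitamin B12 receptor cubilin, was at 34.0 ± 18.0 RPM in E9 AoV, against 0.975 ± 0.0771 RPM in E9 AoD. The list summed to between 175.6 and 253.6 RPM in E9 AoV, and between 75.1 and 81.2 RPM in E9 AoD. Apoa4 and Spink3 stand on this list and on another.

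Of 7 hepatocyte metabolic genes tested, 5 were called higher in E9 AoV than in E9 AoD. Tdo2, tryptophan dioxygenase, was at 8.13 ± 2.03 RPM in E9 AoV, against 0.0764 ± 0.0564 RPM in E9 AoD. Tat, an enzyme of mature hepatocytes, was listed at 0 in all 6 E9 libraries. Only 7 of the 13 genes of this list in the table reached 0.5 RPM anywhere. Of 6 mesothelium and septum transversum markers tested, 4 were called higher in E9 AoV than in E9 AoD, led by Hlx (68.5 ± 3.52 against 8.14 ± 2.73 RPM), and 2 rose and 1 fell from E9 AoV to E10 AoV. The list summed to between 211.8 and 228.9 RPM in E9 AoV. In E10 AoV it summed to between 488.3 and 513.0 RPM, while the members summed to no more than 4.68 RPM. None of 9 erythroid markers was called between the E9 groups or between the AoV stages. Of 6 macrophage markers tested, 2 were called higher in E9 AoV than in E9 AoD and 5 rose from E9 AoV to E10 AoV. The part of these cell types in the members' levels was not tested, and whether the E9 AoV signal came from liver, gut or yolk sac cells cannot be told apart in bulk tissue.

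Genes outside the members with the most similar profile were sought by the root mean square difference of centred log2(RPM + 0.1) values over the 15 libraries, set against the mean profile of the members. The nearest were Serpina1a (0.276), Serpina1b (0.376), Ambp (0.396), Serpina1c (0.437), Serpina1d (0.508) and Serpina1e (0.520), followed by Serpina6 (0.567), Serpind1 (0.635), Rbp4 (0.641) and Plg (0.642). These 10 are all plasma protein genes on the lists, and 5 of them are copies that share reads. Rbp4, the plasma carrier of retinol that travels bound to Ttr, was at 49.7 ± 8.60 RPM in E9 AoV, against 1.48 ± 0.637 RPM in E9 AoD. By the same measure Ttr was the member closest to the mean profile (0.371), and Afp (1.21) and Colec10 (1.2) were the farthest. The tested gene nearest to Fga was Fgg (0.356), that nearest to Apoa1 and to Alb was also Fgg (0.392 and 0.537), and that nearest to Afp was Fgb (1.06). Fgg lay nearest to Serpina1d (0.327), Fgb to Ambp (0.539), Ttr to Serpina1b (0.414), Apob to Serpina1b (0.806) and Itih2 to Serpina1a (0.677). The nearest gene to Colec10 was the unnamed locus AC124170.1 at 1.05, so that Colec10 and Afp had the most distant nearest genes of the members.

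Genes beside the members on the chromosome, chosen by position, fell on both sides. Beside the fibrinogen genes, Plrg1, a splicing factor 5719 bases from Fgb, was at 80.6 RPM on average in E9 AoV and 88 RPM in E9 AoD. Beside Apoa1, Sik3, a kinase 4386 bases away, was at 67.5 and 60.0 RPM, while Apoa4, 10230 bases away on the other side, and Apoa5, 38167 bases away (0.927 and 0.0857 RPM), were higher in E9 AoV as Apoa1 was. Next to Itih2, Kin, 1785 bases away, was at 25.3 and 26.3 RPM, and Itih5, of the same family as Itih2 and 22175 bases away, at 22.3 and 34.7 RPM. Beside Ttr, in contrast, Dsg2, a desmosomal cadherin 60729 bases away, was at 78.0 ± 15.31 RPM in E9 AoV, against 9.86 ± 1.41 RPM in E9 AoD, and B4galt6, 10275 bases away, at 86.9 and 55.2 RPM. Rassf6, 94169 bases from Afp, was at 2.44 ± 0.362 RPM in E9 AoV, against 0.358 ± 0.0666 RPM in E9 AoD. Genes with no known part in plasma were thus level beside some members and higher in E9 AoV beside others. Beyond the Alb and Afp pair, Afm, afamin, of the same family, was at 3.70 RPM in E9 AoV, against 0.130 RPM in E9 AoD. In E10 UGR Afm was at 0.966 RPM, above the 0.701 ± 0.152 RPM of Afp there.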

How the data were processed

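RNA was measured in 15 libraries of mouse AGM tissue in 5 groups of 3, grouped by the stage and tissue in the labels. The numbered libraries of a group came from pools of embryos dissected in separate experiments, so that p-values measure the spread between pools. Per the paper's methods, RNA with a high integrity number was made into TruSeq libraries and read as 50-base single ends. The authors aligned the reads to NCBIM37 (mm9) with TopHat and Bowtie 0.12.3 (version as in the submitters' processing notes), counted them over Ensembl genes with GeneProf, dividing reads that matched several genes, and deposited RPM (reads-per-million), rounded to 3 significant digits and not adjusted for gene length. The deposited table also holds 12 columns of the authors' comparisons, with log2 fold changes and adjusted p-values from DESeq, which were not used. No column belonged to other samples (0).

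RPM is not a count, so the linear models of limma (version 3.58.1, run in R 4.3.3) took log2(RPM + 0.1) values of all 15 samples, 1 mean per group, with an intensity trend. A gene was tested where any sample reached 0.5 RPM, which 18553 of 28876 did, and p-values were adjusted over all of them by Benjamini-Hochberg. A gene was called at an adjusted p below 0.05 and a log2 difference of 1 or more either way (2-fold). The fit was tested on simulated data. Depth was inferred from the steps between low RPM values. Between 58.0% and 59.7% of the low values were whole multiples of a step, too few to recover reads, so no count test was run. Where no library of a group exceeded 3 reads, the fold was taken against 3 reads, in RPM, as a lower bound.

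Positions and transcript lengths came from a GENCODE annotation of NCBIM37, which held 95.3% of the IDs, and promoter letters from RefSeq (GRCm38.p6). The 10 members were named in every comparison. From each of 12 hand-written lists, the count of called genes was taken, and from the 2 called genes with the largest difference in each direction in both comparisons with E9 AoV those named were drawn. Foxa2 is also such a gene. Genes named for their position (Plrg1, Sik3, Kin, Itih5, Apoa5, Afm, Dsg2, B4galt6, Rassf6), Rbp4, Upk3b and the tissue checks (Cdh5, Pecam1, Pax2, Lhx1) fall outside this rule or under its part on similar profiles. Dab2, Lrp2, Onecut1, Onecut2, Prox1 and Cebpa, named for their order over the E9 AoD libraries, also fall outside it. Of the listed genes, 7 were not in the table. The values of 1 listed gene are not reported here. Members and lists were chosen with earlier results of these data known. The alternatives were other pseudocounts (1 and 0.02 RPM), no filter, quantile and median-ratio scaling, separate fits of the groups compared, a replicate block (over all groups and, added after seeing the data, for the E9 groups alone), array weights, no trend, and leaving out each library. Libraries of E9 AoD and E9 AoV with the same number deviated together from their group means (correlations over genes between 0.19 and 0.452 in 3 of 3 pairs). These numbers may therefore pair the E9 samples, but the labels do not state it, and the main fit has no block. The paper's methods describe dissection of both parts from pooled embryos in separate experiments. No other 2 groups had all their pairs above 0.1.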

Additional observations from a re-analysis of the deposited data

Results flagged for a closer look

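The difference between the ventral and the dorsal change from E9.5 to E10.5 was tested for each member by the interaction term of the limma fit. All 10 passed and are listed here for that reason. With both E10 aorta groups low, the interaction largely restates the E9.5 difference between AoV and AoD and is no separate result. The interaction on the log2(RPM + 0.1) scale was −4.94 for Afp, −4.73 for Alb and −5.18 for Ttr. It was −6.09 for Apoa1 and −3.14 for Apob, the 2 ends of the range. It was −5.29 for Fga, −5.01 for Fgb and −5.62 for Fgg, so that the 3 fibrinogen chains lay close together. It was −5.88 for Itih2 and −5.49 for Colec10. In each case the ventral change was a fall from E9 AoV that was called, and the dorsal change was called for 5 of the 10 members. Of all genes tested, 6.89% had an interaction called below 0.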

How the results depend on the processing

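For both comparisons with E9 AoV and the interaction, the number of members called was 10 in the main analysis and under all 52 alternative values, and 519 of 520 alternative log2 differences of members kept direction and call, the exception being the interaction of Apob at a pseudocount of 0.02 RPM (−2.32, adjusted p = 0.1997). Leaving out 1 library at a time, the members called were between 5 and 8 for E10 AoD against E9 AoD, 8 without replicate 3 of E9 AoD, where Colec10 reversed to −0.22 (adjusted p = 0.552), its highest value being 0.985 without replicate 1; the members called stayed at 1, 2 and 1 for E10 AoV against E10 AoD, E10 AoV against E10 UGR and E10 AoD against E10 UGR. With a pseudocount of 1 RPM, the members called were 0 for E10 AoV against E10 AoD (1 in the main analysis), 3 for E10 AoD against E9 AoD (5), 1 for E10 AoV against E10 UGR (2) and 0 for E10 AoD against E10 UGR (1). With 0.02 RPM they were 2 for E10 AoV against E10 AoD and 3 for E10 AoD against E10 UGR. They were 2 in both of these with quantile normalization and with the groups compared alone, and 2 for E10 AoD against E10 UGR with array weights. Over all genes, a pseudocount of 1 RPM left 1196 called between E9 AoV and E9 AoD (2187 in the main analysis), 1104 between E10 AoV and E9 AoV (2046), 1020 between E10 AoV and E10 AoD (1874), 1281 between E10 AoD and E9 AoD (2337), 735 between E10 AoV and E10 UGR (1404), 1143 between E10 AoD and E10 UGR (2100) and 1174 in the interaction (2044). The construction of this alternative lowers every difference of a low gene; other causes were not tested. In the fit of E10 AoD and E9 AoD alone, Fga and Fgg did not pass the filter. Of 17 differences between E10 groups that are not printed, 11 changed sign under some alternative and 1 was called under some alternative.

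With the replicate number as a block, the members called were 10, 10 and 10 for both comparisons with E9 AoV and the interaction, and the block changed no other member count. Within the E9 groups the numbers may pair the samples, which the labels do not state. A replicate block on E9 AoV and E9 AoD alone left all 10 members called (limma adjusted p from 4.81e-06 for Apoa1, Apob, Fga and Fgg to 0.000283 for Afp). Over all genes, 2093 were called in place of 2187. Over all groups, 11 of 30 same-numbered pairs had correlated deviations above 0.1 (range −0.138 to 0.452), and 15 correlated best with their own number. Depth limits the E10 values, since 3 reads are worth between 0.0617 and 0.0889 RPM. Several members, among them Fga, Fgg and Ttr, lay within a few reads of that level in most E10 libraries.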
